A study of Mus musculus with 12 samples.

Results

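The transcripts described here encode 3 JAK kinases (*Jak1*, *Jak2* and *Tyk2*), 5 STAT factors (*Stat2*, *Stat3*, *Stat5a*, *Stat5b* and *Stat6*) and the feedback inhibitor *Socs3*. They were chosen by gene symbol, with earlier results of these data known. They are 9 of the 39179 genes in the table, and all 9 had enough counts to be tested. In 3W-PSCs, pancreatic stellate cells sorted from co-culture with tumour cells and macrophages, *Jak2*, *Stat2*, *Stat3* and *Socs3* were higher than in 2W-PSCs, which were co-cultured with tumour cells alone. The difference was 2.29-fold for *Stat2*, 3.31-fold for *Jak2*, 3.44-fold for *Stat3* and 4.05-fold for *Socs3* (n = 4 libraries per culture). The call of *Socs3* held in 7 of 14 alternative analyses, and those of the other 3 in all that were run. The other 5 members did not pass the test in any comparison of cultures, and no member passed it between 2W-PSCs and mono-cultured PSCs.

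Cytokine receptors without kinase activity of their own carry JAK kinases on their cytoplasmic tails. When a cytokine joins the receptor chains, the JAKs phosphorylate the receptor and then STAT factors, which pair, enter the nucleus and bind DNA. STAT3 is the main factor downstream of the IL-6 family of cytokines, to which oncostatin M belongs, STAT2 acts with IRF9 in the response to type I interferon, STAT5 factors respond to growth hormone and prolactin among others, and STAT6 responds to IL-4 and IL-13. SOCS3 is transcribed in response to STAT3 and restrains JAKs bound to the gp130 receptor chain. In pancreatic tumours this pathway is known for the inflammatory state of fibroblasts. RNA levels give the abundance of the transcripts and not the phosphorylation of the proteins.

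The cells were mCherry-labelled PSCs, the fibroblast-like stellate cells of the pancreas, labelled as of C57BL/6 strain and given in the study's list of cell lines as an SV40-immortalised clone. They were kept in low-serum Minimal Medium for 72 h. Mono-PSCs grew alone, 2W-PSCs grew with EGFP-labelled PCCs (tumour cells of an iKras mouse pancreatic cancer line), and 3W-PSCs grew with these PCCs and TagBFP-labelled cells of a mouse macrophage line (MØs). Flasks of all 3 groups received the same total number of cells, so the number of PSCs plated differed with the culture. Each group had 4 biological replicates by the series' design, sorted on mCherry, and all were cultures of that single line rather than separate animals. PSCs cultured with MØs alone were not analysed here, so MØs acting directly and MØs acting together with PCCs cannot be told apart. RNA was counted with a 3′ kit that yields about one fragment per transcript, and total counts were 4561817 to 8093368 per library. Levels are given in CPM, read counts relative to the library total with a scaling for composition, and can be compared between genes without a length correction. In bulk RNA of sorted cells, a smaller share of cells with a transcript and less of it per cell cannot be told apart.

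The 9 genes lie on 5 chromosomes of GRCm38. *Stat3* (chromosome 11, 100885098 to 100939540, minus strand), *Stat5a* (100859351 to 100885169, plus strand) and *Stat5b* (100780731 to 100850724, minus strand) are direct neighbours, with no protein-coding gene between them. *Stat3* and *Stat5a* run towards each other and share 72 exonic bases at their 3′ ends, the region this kit counts. *Socs3* is on the same chromosome (117966079 to 117970047, minus strand). *Stat2* (128270559 to 128292849) and *Stat6* (127642986 to 127660957) are both on the plus strand of chromosome 10, with 26 protein-coding genes between them. *Jak1* is on chromosome 4 (101152367 to 101265282, minus strand), *Jak2* on chromosome 19 (29251828 to 29313080, plus strand) and *Tyk2* on chromosome 9 (21104068 to 21131243, minus strand).

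Promoters are shown for 3 of the members that rose, because STAT dimers bind a palindrome and the windows can be read for it. That of *Jak2*, which also rose, was planned but is not printed. That of *Stat2* was added after its values were seen. Each holds 250 bases before and 50 after a transcription start in RefSeq on GRCm38.p6, written 5′ to 3′ on the strand of the gene, and capitals mark the matches found by script. The letters searched on both strands were TTCNNNGAA and TTCNNNNGAA, the STAT palindrome with a spacer of 3 or 4 bases, and GAAANNGAAA, the core of the interferon-response element bound by STAT2 with IRF9, which was added after the data were seen.
*Socs3* (chr11:117969317-117969616, minus strand): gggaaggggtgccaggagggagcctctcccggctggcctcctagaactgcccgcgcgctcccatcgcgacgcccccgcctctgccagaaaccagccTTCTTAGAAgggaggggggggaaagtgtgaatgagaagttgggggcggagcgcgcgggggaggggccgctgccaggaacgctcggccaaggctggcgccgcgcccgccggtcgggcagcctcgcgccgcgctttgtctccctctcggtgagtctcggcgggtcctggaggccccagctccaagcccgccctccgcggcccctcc
*Stat2* (chr10:128270248-128270547, plus strand): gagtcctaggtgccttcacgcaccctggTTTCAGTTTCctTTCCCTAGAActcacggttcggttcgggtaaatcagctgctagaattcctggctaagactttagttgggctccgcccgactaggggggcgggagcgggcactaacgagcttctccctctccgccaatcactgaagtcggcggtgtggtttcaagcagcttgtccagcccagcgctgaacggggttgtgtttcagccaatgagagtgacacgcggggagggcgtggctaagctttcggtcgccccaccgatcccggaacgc
*Stat3* (chr11:100939491-100939790, minus strand): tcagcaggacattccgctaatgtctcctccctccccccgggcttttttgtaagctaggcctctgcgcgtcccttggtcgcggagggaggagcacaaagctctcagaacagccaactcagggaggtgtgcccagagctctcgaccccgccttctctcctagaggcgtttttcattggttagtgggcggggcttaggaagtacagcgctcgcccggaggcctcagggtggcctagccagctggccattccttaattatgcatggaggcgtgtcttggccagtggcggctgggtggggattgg

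The *Socs3* window held TTCTTAGAA, with its first base at -154 from the RefSeq start site used. By the gene positions given above, *Socs3* reaches to 117970047, so this whole window lies inside the annotated gene. Against that 5′ end the match is not upstream. *Socs3* was the only one of the 9 members, which have 11 windows in all, with TTCNNNGAA. Of 32851 mouse promoter windows of this length, 8.3% hold these letters. Whether the members hold more motifs than such windows do in general was not tested. The *Stat2* window held TTCCCTAGAA at -210, a form present in 6.95% of the windows, and next to it TTTCAGTTTC at -222, a reverse-strand form of GAAANNGAAA, which is present in 3.44% of the windows. These matches do not overlap each other. The windows of *Stat3*, *Jak2* and the other members held none of the 3 motifs.

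*Jak1* gave the largest transcript level of the 9 in every culture, at 293 CPM ± 33.97 in mono-PSCs, 333 ± 90.3 in 2W-PSCs and 361 ± 29.5 in 3W-PSCs (mean ± SD, n = 4 here and below). In mono-PSCs *Stat3*, *Stat2* and *Stat6* followed at 68.5 ± 7.74, 48.6 ± 19.6 and 46.4 ± 4.94 CPM, and the libraries of *Stat2* overlapped those of both. *Jak2* stood at 25.6 ± 5.73 CPM, *Socs3* at 18.2 ± 11.1, *Stat5b* at 12.2 ± 5.55, *Tyk2* at 8.92 ± 3.19 and *Stat5a* at 7.25 ± 3.34, and each of the last 4 overlapped its neighbours. In 3W-PSCs *Stat3* followed *Jak1* at 237 CPM, then *Stat2* at 158, *Jak2* at 84.5, *Socs3* at 68.1 and *Stat6* at 51.4, while *Stat5b*, *Tyk2* and *Stat5a* stayed lowest, at 13.4, 10.6 and 9.65 CPM. There *Jak2* and *Socs3* overlapped, *Socs3* and *Stat6* did not, so that *Stat6* ranked below both of them, whereas in mono-PSCs its libraries lay above those of *Jak2* and *Socs3*.

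**Figure D1:**
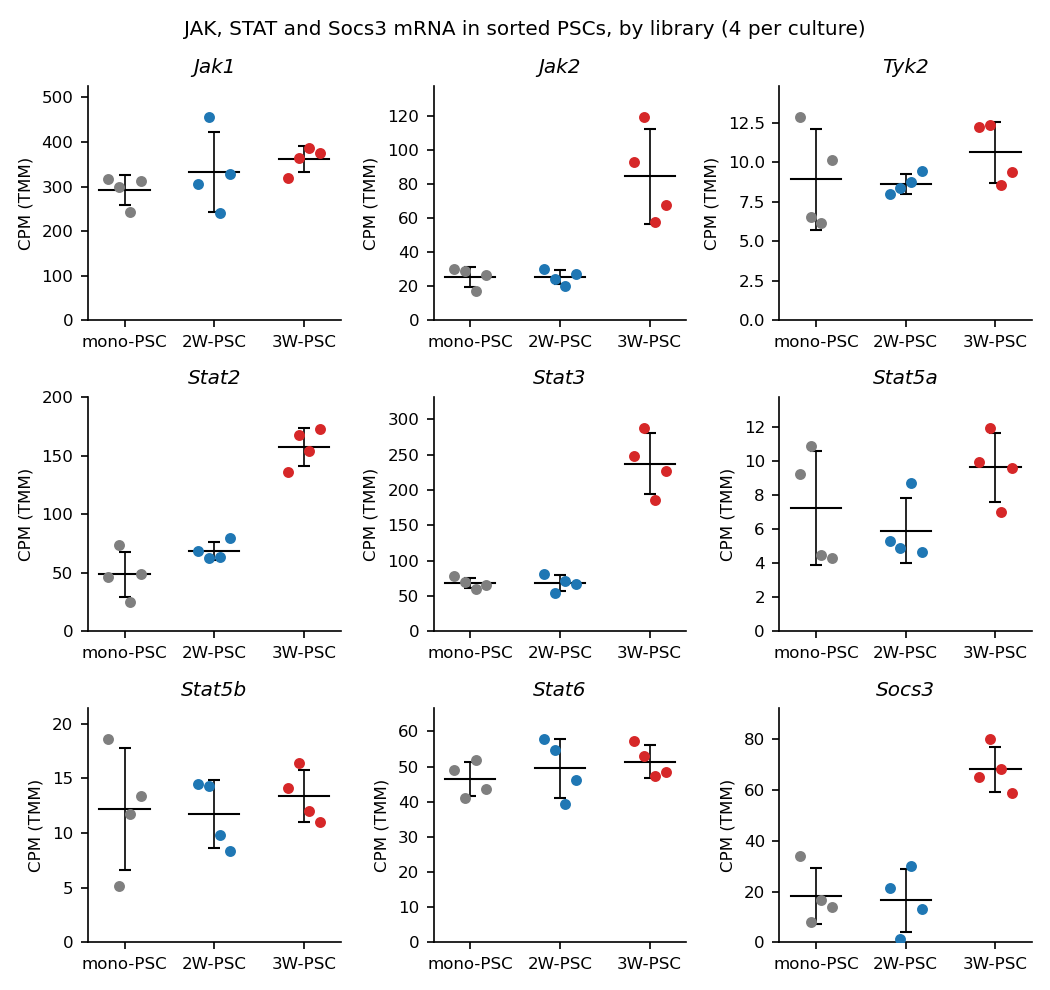
Level of each member in CPM (y axis, linear, from 0) in the 12 libraries, by culture (x axis). Points are libraries, the horizontal line is the mean and the bar 1 SD. The 4 points of 3W-PSCs lie above all others for *Jak2*, *Stat2*, *Stat3* and *Socs3*.

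Among the kinases, which start the phosphorylation cascade, *Jak2* changed and its partners did not pass the test. *Jak2*, the kinase shared by many receptors including gp130, measured 29.95, 28.8, 17.3 and 26.4 CPM in the 4 mono-PSC libraries, 30.03, 24.3, 20.4 and 27.03 CPM in 2W-PSCs and 93.2, 119.6, 57.6 and 67.8 CPM in 3W-PSCs. The lowest 3W-PSC library stood above the highest of the other 8, and mono-PSCs and 2W-PSCs overlapped. The log2 fold change of *Jak2* in 3W-PSCs over 2W-PSCs was 1.73 (SE 0.246, 95% interval 1.19 to 2.27, edgeR adjusted p = 0.00157), and over mono-PSCs 1.72 (SE 0.231, adjusted p = 3.24e-05).

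*Jak1*, which pairs with JAK2 or TYK2 on many receptors, measured 306, 457, 241 and 328 CPM in 2W-PSCs and 319, 364, 387 and 375 CPM in 3W-PSCs. These overlapped, with a log2 fold change of 0.12 (95% interval -0.32 to 0.55, edgeR adjusted p = 0.758). Against mono-PSCs, at 317, 298, 244 and 313 CPM, the 4 libraries of 3W-PSCs were higher without overlap, but the log2 fold change of 0.30 did not pass (adjusted p = 0.149). *Tyk2*, a kinase of interferon and IL-12 family receptors, had only 33 to 106 counts per library. Its log2 fold change over 2W-PSCs was 0.29 (95% interval -0.24 to 0.82, adjusted p = 0.479). *Tyk2* shares 554 exonic bases with the antisense gene *1700084C06Rik*. As no source names the strand setting of the counting, reads of these shared bases cannot be told apart. Whether the bases lie in the 3′ region that the kit counts was not tested.

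Of the STAT factors, *Stat3* and *Stat2* rose with MØs in the culture. *Stat3* measured 78.4, 69.9, 59.8 and 66.1 CPM in mono-PSCs, 81.5, 54.8, 71.4 and 67.8 CPM in 2W-PSCs, and 248, 289, 186 and 227 CPM in 3W-PSCs. The 3W-PSC libraries lay apart from the other 8, which overlapped each other. The log2 fold change over 2W-PSCs was 1.78 (SE 0.189, 95% interval 1.37 to 2.19, edgeR adjusted p = 0.000271) and over mono-PSCs 1.79 (adjusted p = 4.63e-07).

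*Stat2* measured 46.8, 73.4, 25.4 and 48.9 CPM in mono-PSCs, 69.0, 62.7, 63.8 and 79.8 CPM in 2W-PSCs and 136, 168, 154 and 173 CPM in 3W-PSCs. Its 3W-PSC libraries were apart from the rest, whereas 1 mono-PSC library exceeded 3 of the 4 2W-PSC libraries. The log2 fold change in 3W-PSCs was 1.19 over 2W-PSCs (SE 0.156, 95% interval 0.85 to 1.54, edgeR adjusted p = 0.000936) and 1.69 over mono-PSCs (adjusted p = 3.47e-05). Of the 9 members *Stat2* also had the largest difference between 2W-PSCs and mono-PSCs, 0.52 on the log2 scale, which did not pass (95% interval -0.06 to 1.11, adjusted p = 0.784).

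*Stat6*, the factor of IL-4 and IL-13 signalling, stayed within 39.3 to 58.0 CPM over all 12 libraries. Its log2 fold change was 0.05 over 2W-PSCs (95% interval -0.33 to 0.44, edgeR adjusted p = 0.879) and 0.14 over mono-PSCs (95% interval -0.19 to 0.47, adjusted p = 0.536). These intervals leave out a change as large as that of *Stat3* or *Stat2*.

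The STAT5 pair was scarce. *Stat5a* had 20 to 103 counts per library, and its 2W-PSC libraries at 5.33, 4.92, 8.74 and 4.64 CPM overlapped those of 3W-PSCs at 9.98, 11.98, 7.01 and 9.61 CPM. Its log2 fold change of 0.70 had an unadjusted p of 0.0429 and an edgeR adjusted p of 0.174 (95% interval 0.03 to 1.37). *Stat5b* had 26 to 141 counts per library and a log2 fold change of 0.19 (95% interval -0.38 to 0.76, adjusted p = 0.687). Reads of the pair are partly ambiguous, since 10.6% of the 75-base windows near the annotated 3′ ends of *Stat5b* occur in *Stat5a*, and 2.67% of those of *Stat5a* occur in *Stat5b*. *Stat5a* also shares 72 exonic bases with the more abundant *Stat3*, on the opposite strand. As no source names the strand setting, reads of these bases cannot be told apart. Their part in the *Stat5a* and *Stat3* levels was not tested.

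*Socs3*, the restraint on gp130-bound JAKs, varied most within the cultures without MØs. Mono-PSCs measured 33.96, 8.14, 16.8 and 14.1 CPM, 2W-PSCs 21.5, 1.23, 30.2 and 13.1 CPM, and 3W-PSCs 64.9, 80.2, 68.3 and 58.9 CPM. The coefficient of variation was 60.8% in mono-PSCs, 74.8% in 2W-PSCs and 13.2% in 3W-PSCs, and the 3W-PSC libraries did not overlap the others. The log2 fold change over 2W-PSCs was 2.02 (SE 0.546, 95% interval 0.82 to 3.22, edgeR adjusted p = 0.0386) and over mono-PSCs 1.89 (SE 0.297, adjusted p = 0.000149).

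The call of *Socs3* between 3W-PSCs and 2W-PSCs changed with single libraries. The lowest 2W-PSC value, 5 counts, came from 2W replicate 2, a library that stood apart from its group, with Spearman correlations of 0.858 to 0.920 to the other 3 libraries, where the remaining replicate pairs gave 0.948 to 0.987. Without it the log2 fold change was 1.65 with an adjusted p of 0.000182 by edgeR. The call was lost without 2W replicate 1 (adjusted p = 0.0697), 2W replicate 4 (0.116), 3W replicate 1 (0.0908), 3W replicate 2 (0.115), 3W replicate 3 (0.0857) or 3W replicate 4 (0.0799), with log2 fold changes of 1.91 to 2.16.

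Over the 9 members, 4 were called higher and 0 lower in 3W-PSCs against 2W-PSCs at an adjusted p under 0.05. Of all 11513 genes tested, 5.73% were higher and 4.95% lower, 10.7% in all. The 4 were also the members whose 3W-PSC libraries all lay above the 2W-PSC libraries, as held for 11.6% of genes. The median log2 fold change was 0.70 for the members and 0.00 for all genes. As the members were chosen with earlier results of these data known, these counts describe them and are not a test of the set. Between 2W-PSCs and mono-PSCs 0 of 9 passed by edgeR, 0 had an unadjusted p under 0.05, and 0 passed by DESeq2, where edgeR called 0.839% of 11199 genes higher and 0.152% lower (0.991% in all) and 7.4% had an unadjusted p under 0.05. The 95% intervals there ran from -0.51 to 0.54 on the log2 scale for *Jak2*, -0.38 to 0.44 for *Stat3* and -1.47 to 1.25 for *Socs3*. Between 3W-PSCs and mono-PSCs the 4 members that rose over 2W-PSCs were also called higher, as were 13.4% of 11551 genes, with 13% called lower (26.4% in all). Together with *Jak1*, 5 members did not overlap there, against 13.9% of genes that were higher without overlap. The comparisons with 3W-PSCs share the same 4 libraries, so they are not separate evidence.

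**Figure D2:**
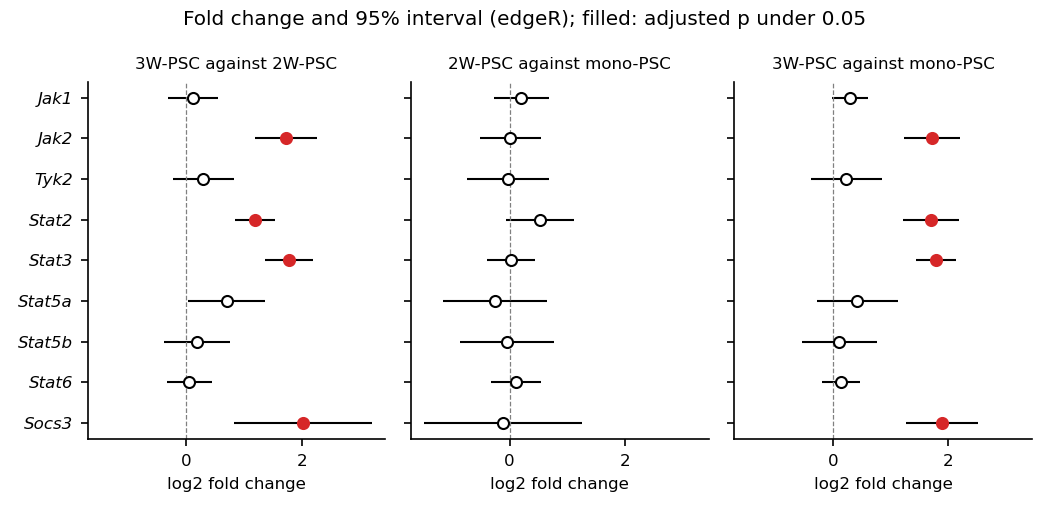
Log2 fold change (x axis) with its 95% interval from edgeR for each member (rows), one panel per comparison. Filled points passed an adjusted p under 0.05, as *Jak2*, *Stat2*, *Stat3* and *Socs3* did in both comparisons of 3W-PSCs and no member did in 2W-PSCs against mono-PSCs.

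Within each class, the balance of transcripts shifted towards *Stat3* and *Jak2*. *Stat3* made up 38.76%, 34.9%, 39.0% and 37.5% of the summed counts of the 5 STAT members in mono-PSCs, 35.7%, 28.7%, 37.0% and 32.8% in 2W-PSCs and 53.3%, 53.7%, 45.8% and 48.4% in 3W-PSCs. The share of 3W-PSCs exceeded that of 2W-PSCs by 16.8 percentage points and that of mono-PSCs by 12.8, each without overlap (p = 0.0286 in a two-sided exact permutation test, which cannot go lower with 4 libraries against 4, 0.0429 adjusted over 6 share comparisons). Between 2W-PSCs and mono-PSCs it differed by -3.98 points (exact permutation p = 0.114), with overlapping libraries. *Stat6* gave 25.9%, 24.1% and 11.02% of the STAT counts in mono-, 2W- and 3W-PSCs.

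*Jak2* gave 7.74% ± 0.958 of the counts of the 3 JAK members in mono-PSCs, 7.17% ± 1.58 in 2W-PSCs and 18.4% ± 5.44 in 3W-PSCs. The difference of 11.3 points between 3W-PSCs and 2W-PSCs and that of 10.7 points over mono-PSCs had the same exact permutation p of 0.0286 (adjusted 0.0429), without overlap. Without any 1 of the 2W-PSC libraries in the former, or of the mono-PSC libraries in the latter, the exact permutation p was 0.0571. *Jak1* still supplied most of the JAK transcripts, with a share of 89.6%, 90.4% and 79.2% in mono-, 2W- and 3W-PSCs. Summed, the STAT members reached 183 CPM ± 23.0 in mono-PSCs, 205 ± 17.1 in 2W-PSCs and 469.7 ± 53.5 in 3W-PSCs. The shares are relative to the members listed here and would differ if transcripts of further STAT genes were summed. They come from the same counts as the fold changes, of members chosen with earlier results known. The share tests are therefore not separate evidence.

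**Figure D3:**
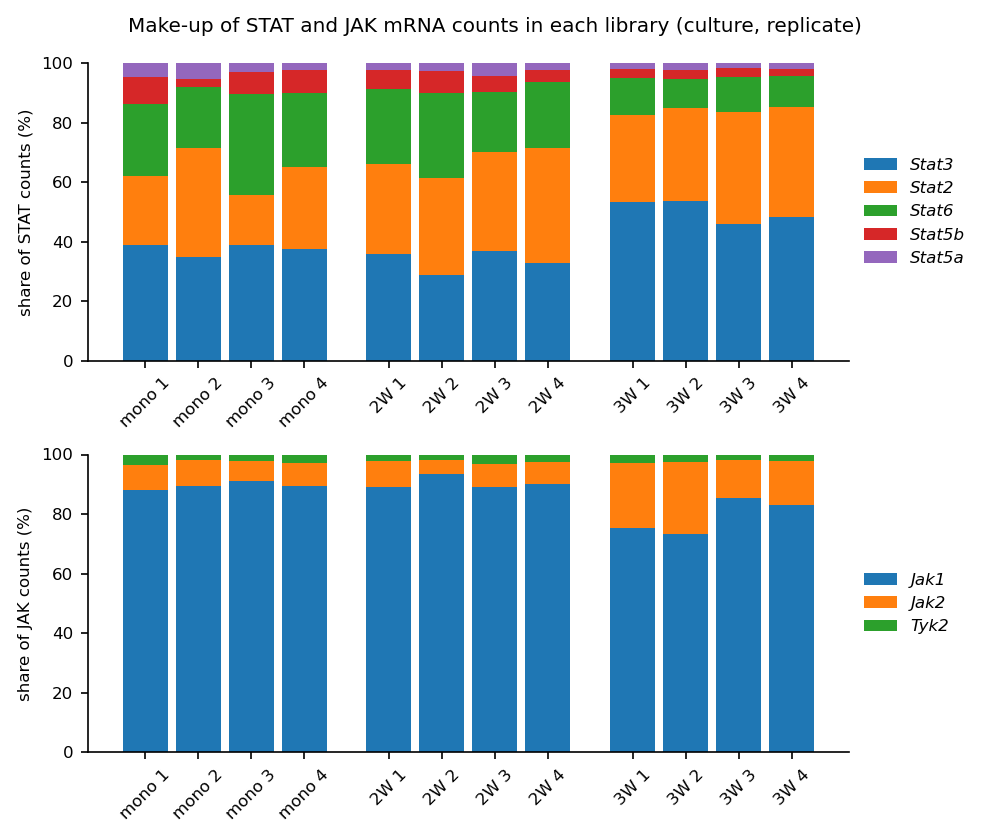
Stacked bars, 1 per library (x axis, grouped by culture), divide the summed counts of the 5 STAT members (top) and of the 3 JAK members (bottom) among the genes in percent (y axis, 0 to 100). The *Stat3* share averaged 50.3% in 3W-PSCs against 33.5% in 2W-PSCs, and the *Jak2* share 18.4% against 7.17%.

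The genes whose profile over the 12 libraries lay nearest were ranked by the mean absolute difference of centred log2 CPM among 8700 genes. For *Stat3* they were *Ttc39b* (0.17), *Pros1* (0.17), *Rsbn1* (0.18), *Jak2* (0.19) and *Hk2* (0.20). For *Jak2* they were *Rsbn1* (0.19), *Stat3* (0.19), *Bcl2l11* (0.21), *Map4k4* (0.22) and *Hivep2* (0.22). *Socs3* had more distant neighbours, *Pnrc1* (0.24), *Llgl1* (0.28), *H2_T22* (0.30), *Syvn1* (0.32) and *Lgmn* (0.33), and its distance to *Stat3* was 0.68. Like *Socs3*, all 5 of its neighbours were lowest in 2W replicate 2, at 2.71 CPM for *Pnrc1*, 2.46 for *Llgl1*, 2.71 for *H2_T22*, 0.246 for *Syvn1* and 2.95 for *Lgmn*.

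**Figure D4:**
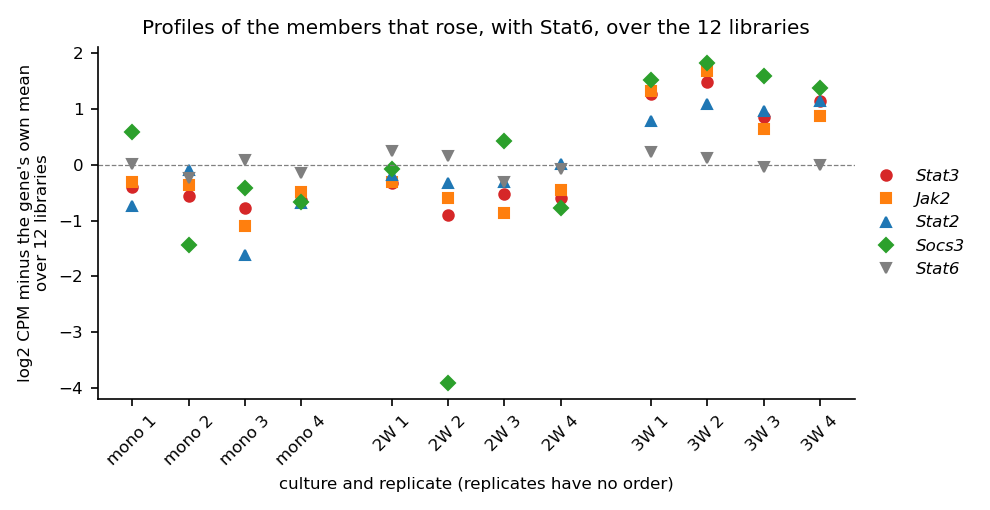
Centred log2 CPM (y axis, log2 units) of the 4 members that rose and of *Stat6* in each of the 12 libraries (x axis, grouped by culture). *Stat3* and *Jak2* lie close together in every library, *Socs3* is lowest in 2W replicate 2, and *Stat6* stays near 0.

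Members of the same families that were not in the set behaved variously. *Socs6*, of the same inhibitor family as *Socs3*, rose by 0.58 on the log2 scale over 2W-PSCs (edgeR adjusted p = 0.0447). It was the 1 of 8 tested relatives that rose, and 0 fell, where 5.73% of all genes rose and 4.95% fell. Without 2W replicate 2 the counts were 4 and 1, where 9.36% of 11736 genes rose and 8.6% fell. *Socs1*, another inhibitor of JAKs, was at 3.41, 4.78 and 14.9 CPM, without overlap of 3W-PSCs and 2W-PSCs, yet its log2 fold change of 1.59 did not pass (adjusted p = 0.118). *Socs7* (1.21, adjusted p = 0.0683), *Jak3* (1.80, 0.171), *Cish* (0.90, 0.250), *Socs5* (0.32, 0.410), *Socs4* (0.10, 0.794) and *Socs2* (-0.63, 0.0837) did not pass either, and *Stat4* had 0 counts. Over mono-PSCs 6 of 8 relatives rose (13.4% of all genes did), *Jak3*, *Socs1*, *Socs5*, *Socs6*, *Socs7* and *Cish*.

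Chains of receptors that signal through JAKs went in both directions against 2W-PSCs. Of 14 tested, 5 rose and 1 fell (5.73% and 4.95% of all genes), and 7 and 1 did so without 2W replicate 2 (9.36% and 8.6% of all genes). *Osmr*, the oncostatin M receptor chain that pairs with gp130, went from 7.79 CPM to 59.8 CPM (log2 fold change 2.92, edgeR adjusted p = 0.000144). *Il13ra1* rose by 1.96 (adjusted p = 0.0166) and *Il6st*, which encodes gp130, by 1.02 (0.00532). The type I interferon receptor chain *Ifnar2* rose by 1.09 (0.00199), whereas *Il11ra1*, the IL-11 receptor chain, fell by 1.31 (0.0272). Between 2W-PSCs and mono-PSCs 1 of 13 rose, *Il4ra*, by 2.06 (edgeR adjusted p = 0.00834), and 0 fell (0.839% and 0.152% of all genes). Over mono-PSCs 10 of 13 rose and 1 fell in 3W-PSCs (13.4% and 13% of all genes). Of the 14 tested phosphatases, PIAS proteins and adaptors that restrain or modify the pathway, 0 passed against 2W-PSCs by edgeR (10.7% of all genes did). Without 2W replicate 2, 0 passed as well, where 9.36% of all genes rose and 8.6% fell. Over mono-PSCs 2 rose and 0 fell, where 13.4% of all genes rose and 13% fell. These 2 were the adaptor *Sh2b2*, by 1.39, and the ubiquitin ligase *Cbl*, by 1.19.

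The lists of target genes were drawn up from textbook knowledge with earlier results of these data known. Of 20 STAT3 targets, *Socs3* among them, 14 rose and 1 fell in 3W-PSCs over 2W-PSCs, with a median log2 fold change of 1.42. Of all genes 5.73% rose and 4.95% fell, with a median of 0.00. *Hp*, haptoglobin, had 96 to 270 counts per 3W-PSC library and at most 1 in any 2W-PSC library, and *Lbp*, the lipopolysaccharide-binding protein, had 36 to 95 against at most 1. *Saa3*, an acute phase protein, went from 2.51 CPM to 237 CPM (log2 fold change 6.58, edgeR adjusted p = 3.26e-05). The AP-1 factor *Fos*, on the same list, fell by 1.20 (adjusted p = 0.0386). Without 2W replicate 2 the counts were 15 and 2, where 9.36% and 8.6% of all genes were called. Between 2W-PSCs and mono-PSCs 1 of 16 rose and 0 fell, where 0.839% of all genes rose and 0.152% fell.

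Of 12 interferon targets of STAT2 and IRF9, 9 rose and 0 fell over 2W-PSCs (5.73% and 4.95% of all genes), with a median log2 fold change of 1.57, and 11 rose without 2W replicate 2 (9.36% of all genes). Between 2W-PSCs and mono-PSCs 1 of 10 rose (0.839% of all genes), with a median of 0.90 against 0.02 over all genes. Without 2W replicate 2, 4 of 10 rose and 0 fell there, where 1.59% of all genes rose and 0.436% fell. *Rsad2*, an antiviral enzyme, went from 16.1 CPM to 104 CPM (log2 fold change 2.68, edgeR adjusted p = 5.81e-05). *Irf9*, the partner of STAT2, had a log2 fold change of 0.04 (adjusted p = 0.907). Among 6 STAT5 targets *Pim1* rose by 0.88 and *Igf1* fell by 2.34 (5.73% and 4.95% of all genes), with a median of 0.01. Without 2W replicate 2, 1 rose and 2 fell (9.36% and 8.6% of all genes). *Pim1* is also on the STAT3 list. For STAT6 a single listed target, *Il4ra*, had enough counts to test. It rose by 0.88 over 2W-PSCs (edgeR adjusted p = 0.0373), where 5.73% of all genes rose, and is also on the STAT3 list.

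**Figure D5:**
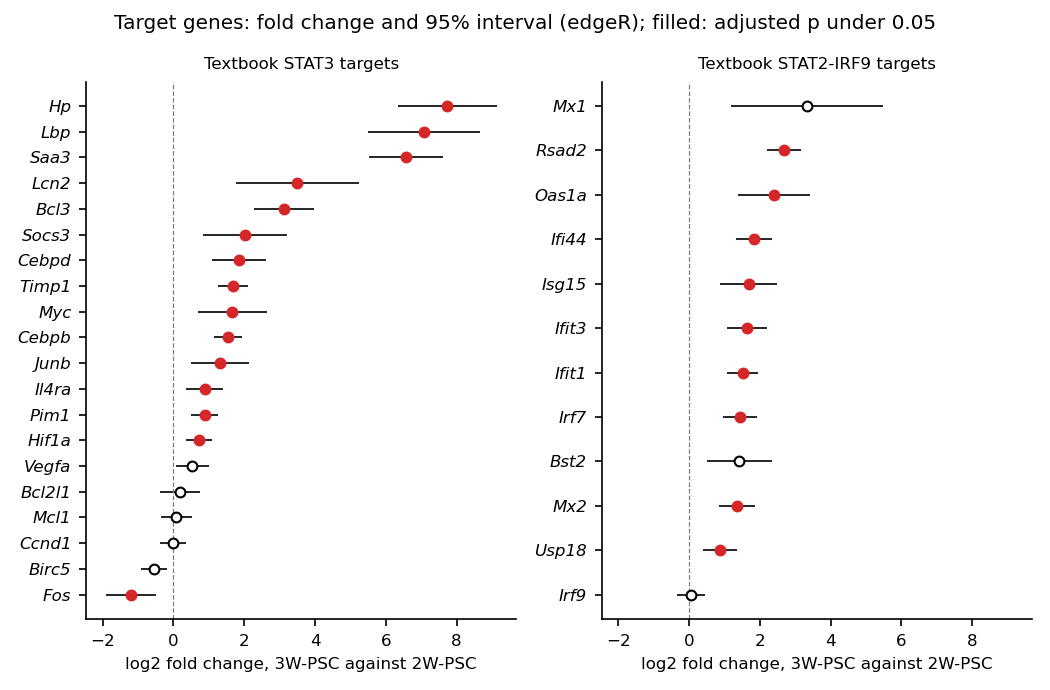
Log2 fold change with 95% interval from edgeR (x axis) in 3W-PSCs over 2W-PSCs for textbook STAT3 targets (left) and STAT2-IRF9 targets (right), with filled points for adjusted p under 0.05. Of the STAT3 targets 14 rose and 1, *Fos*, fell. *Hp* and *Lbp*, at most 1 count per 2W-PSC library, have fitted values that depend on the prior count.

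Markers of the co-cultured cells were measured beside these results. Of 12 listed macrophage markers, 11 were in the table and their summed CPM per library ranged over 1.62 to 7.54 (mono-PSCs), 2.53 to 11.8 (2W-PSCs) and 8.49 to 45.9 (3W-PSCs). The pan-leukocyte gene *Ptprc* had 0 counts in mono-PSCs and 2W-PSCs, and 3W-PSCs had 0 to 20, and *Csf1r* averaged 0.0871, 2.35 and 2.31 CPM. The 3W-PSC library with the lowest marker sum, 3W replicate 2 at 8.49 CPM, had the highest *Jak2*, *Stat3* and *Socs3* of the 12 libraries, while *Stat2* was highest, at 173 CPM, in 3W replicate 4, the library with the highest marker sum. The summed CPM of 12 epithelial markers ranged over 0.602 to 2.44 (mono-PSCs), 74.9 to 145 (2W-PSCs) and 50.5 to 88.7 (3W-PSCs), so that both co-cultures lay above mono-PSCs and overlapped each other. The epithelial gene *Epcam* had at most 3 counts in any library, while *Cdh1* averaged 18.5 CPM and *Krt19* 17.4 in 2W-PSCs. Their part in the results was not tested. The fibroblast genes *Col1a1* (2167, 3103 and 1732 CPM in mono-, 2W- and 3W-PSCs) and *Pdgfrb* (76.7, 125 and 123 CPM) were present in all cultures. Of 10 tested fibroblast and stellate markers, 5 fell in 3W-PSCs against 2W-PSCs, *Col1a1*, *Col3a1*, *Dcn*, *Thy1* and *Fap*, where 4.95% of all genes fell. Of the 10, 1 rose, *Pdgfra*, from 14.4 CPM to 34.7 CPM, where 5.73% of all genes rose. Without 2W replicate 2 the counts were 6 and 2 (8.6% and 9.36% of all genes). For the 12 listed, 2W-PSCs had a summed CPM of 8237 to 8540, against 5121 to 6280 for 3W-PSCs, without overlap, and mono-PSCs 4748 to 9065. The largest parts of this sum came from *Col1a1*, *Col1a2* (2881 CPM in 2W-PSCs and 2077 in 3W-PSCs) and *Vim* (1392 and 1315). The part of this difference in the results was not tested. The stellate marker *Des* stayed below 4 CPM in all libraries.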

How the data were processed

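PSC RNA was counted in 12 libraries, 4 per culture. The authors made QuantSeq 3′ FWD libraries, aligned single reads with STAR to GRCm38 and counted genes with featureCounts. The deposited values are raw whole-number counts, although the methods call them normalised read counts. Molecular identifiers are not named, so counts include PCR copies, and what is said of depth covers counting error only. Strand setting is not given in the sources used here.

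Here, counts were scaled by TMM and compared pairwise with edgeR 4.0.16 in R 4.3.3 (glmQLFit and glmQLFTest, filterByExpr, no block, p-values adjusted by Benjamini-Hochberg over all genes tested, called under 0.05), with DESeq2 1.42.0 as an alternative. Fits used the 8 libraries of the cultures compared. Standard errors came from the fold change and F, and 95% intervals from the t distribution. CPM used TMM over all 12 libraries. Shares were compared by exact permutation. The fits were tested on simulated data. Positions come from GENCODE M21 and promoters from RefSeq, matched by symbol for 9 of 9 members. The share test was planned for 6 STAT members but the set holds 5. Members and lists were chosen with earlier results of these data known. Named were all 9 members, family relatives one by one, up to 4 called genes of each list by size of change, 5 nearest profiles for *Stat3*, *Jak2* and *Socs3*, and defining markers. *Il6st*, *Fos*, *Irf9*, *Il4ra*, *Pim1*, *Igf1*, *Sh2b2*, *Cbl*, *Thy1* and *Des*, and the promoter of *Stat2*, were also named after their values were seen. Some genes of the lists are not reported here, and the counts of those lists leave them out.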

Additional observations from a re-analysis of the deposited data

Results flagged for a closer look

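*Stat5a* in 2W-PSCs had 1 library away from the other 3: 2W replicate 3 stood at 8.74 CPM, where the others lay at 4.64 to 5.33 CPM. The gap to the nearest library took 0.831 of the whole range, above Dixon's 95% critical value for 4 libraries. Chance passes this about 1 time in 20 groups, each member was checked in each culture, and no other set of libraries passed.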

How the results depend on the processing

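*Jak2*, *Stat2* and *Stat3* stayed called in both comparisons of 3W-PSCs, and *Socs3* in 3W-PSCs over mono-PSCs, under every alternative: DESeq2's size factors or Wald test, no filter, a 10-count minimum per library, a joint fit of the 12 libraries, the replicate block, no *Gm26924* and mitochondrial rRNA (chosen after seeing the data), and each library left out. Members called in 3W-PSCs against 2W-PSCs were 4, but 3 with the 10-count filter, which left *Socs3* untested, 3 with the replicate block, where *Socs3* had an adjusted p of 0.0661 by edgeR and a log2 fold change of 2.31, and 3 to 4 with one library left out. The adjusted p of *Socs3* ranged from 0.000182 to 0.116.

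All genes called in 3W-PSCs against 2W-PSCs were 1230, 752 with the replicate block, and 497 (without 3W replicate 2) to 2107 (without 2W replicate 2) with one library left out. In 2W-PSCs against mono-PSCs they were 111, 177 without a filter, 57 with the 10-count filter, 262 in the joint fit, 275 by DESeq2, and 61 to 233 with one library left out.

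Replicate numbers were not taken as pairs, although 7 of 12 correlated best with their own number. Same-number samples deviated with correlations of -0.048 to 0.15 in 3W- against 2W-PSCs and 0.0026 to 0.11 in 3W- against mono-PSCs. In 2W- against mono-PSCs the correlations were 0.099 to 0.34, so some pairing there is possible. With the replicate block the share differences of 16.8, 12.8, 11.3, 10.7 and -3.98 points had p = 0.125, the smallest that 4 pairs allow by exact permutation, and that of *Jak2* in 2W- against mono-PSCs had p = 0.875. Leaving a library out, the *Stat3* share difference was 15.1 to 18.3 points for 3W- against 2W-PSCs, 11.6 to 14.3 against mono-PSCs and -5.13 to -2.35 for 2W- against mono-PSCs. The *Jak2* share difference was 9.38 to 13.2, 8.81 to 12.6 and -1.10 to 0.152 points, and without any 1 of the 2W-PSC, or mono-PSC, libraries its exact permutation p in the comparison that lost the library was 0.0571. Uncalled log2 fold changes near 0 turned sign: for 2W-PSCs against mono-PSCs, *Jak2* was -0.016 without a filter, -0.0076 in the joint fit and -0.14 to 0.10 with one library left out, *Tyk2* 0.026 with the replicate block and -0.18 to 0.18 with one left out, *Stat5b* 0.0094 with the block and -0.32 to 0.21, *Stat3* -0.075 to 0.11, and *Socs3* -0.57 to 0.36. In 3W-PSCs, with one library left out, *Jak1* was -0.017 to 0.31 and *Stat6* -0.047 to 0.13 over 2W-PSCs, and *Stat5b* -0.13 to 0.38 over mono-PSCs. The cause of these changes was not tested. *Tyk2*, *Stat5a* and *Stat5b* had 20 to 141 counts per library.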
